A study of Mus musculus with 9 samples.

Results

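The genes described here encode the machinery through which a CD8+ T cell receives interleukin 12 and interferon gamma (IFN-γ), and the transcription factors that set its effector state. They were chosen by symbol, 7 of the 750 genes in the table: Il12rb1 and Il12rb2 for the IL-12 receptor chains, Ifngr1 for the ligand-binding chain of the IFN-γ receptor, Stat4, Tbx21 (T-bet), Eomes and Runx3. All 7 were found, and none was lost to a filter on low values, because none was set. OT-1 CD8+ T cells carry 1 transgenic T cell receptor, which sees an ovalbumin (OVA) peptide on the class I molecule H2-Kb. The study asked what happens in such T cells when they meet glioma cells that lack MHC class I beside macrophages that show them their antigen.

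Every T cell of the 9 samples came from OT-1 splenocytes primed with OVA peptide and expanded in IL-2, as the growth protocol and the methods describe them, by which the controls too had been activated before. The deposited design text instead calls the reference T cells naïve, a conflict that the values here do not settle. For OT-1 alone, the T cells were then kept for 24 h without other cells. For macrophages, they spent the 24 h with OVA-pulsed macrophages grown from bone marrow. For macrophages and tumor, CT2A-TRP2-β2mKO cells were added as well. This is a mouse glioma line that expresses TRP2 and no OVA, in which β2-microglobulin was knocked out and from which H2-Kb- and H2-Db-negative cells were sorted as single cells. Whether 1 clone or several were used is not given in the sources used here. The labels give 5 T cells for each macrophage and 10 for each tumor cell, whereas the methods give lower ratios. The methods name IL-2 in the medium of OT-1 alone but not for the co-cultures, and the labels name it for no group, so an effect of IL-2 and one of co-culture cannot be told apart. T cells with tumor cells only were not analysed here. CD8+ cells were sorted, and their RNA was counted without amplification on an nCounter with an immune gene panel. Each group held 3 samples, described as co-cultures, so a p-value here speaks only to the spread among these samples, which may be technical.

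IL-12, made by antigen-presenting cells, binds a receptor of 2 chains. The β1 chain, which is also part of the IL-23 receptor, binds the kinase Tyk2, and the β2 chain binds Jak2 and recruits STAT4, the transcription factor that carries the signal to the nucleus. In activated T cells the β2 chain is classically described as the more tightly regulated part of the receptor, and STAT4 together with T-bet drives the IFN-γ gene. IFN-γ in turn acts through its own receptor and the kinases Jak1 and Jak2. T-bet and Eomes are related T-box factors that share many targets in cytotoxic lymphocytes, and Runx3 keeps CD8+ T cells cytotoxic and silences Cd4.

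Values are log2 normalized counts, so a difference of 1 is a doubling. The recovered raw total was 132015 counts in macrophages replicate 2 and 697834 to 1186029 in the other 8 samples. The panel as a whole did not stay centred: the median difference over all 750 genes was 0.40 for macrophages and tumor against OT-1 alone, 0.66 for macrophages against OT-1 alone and -0.12 for macrophages and tumor against macrophages, on the log2 scale. Over the 310 genes with a mean level of 8 or more it was 0.21, 0.02 and 0.17. Without macrophages replicate 2 the medians were 0.40, 0.20 and 0.17 over all genes and 0.21, 0.04 and 0.16 over the 310. Only Runx3 and Il12rb1 had group means under 8, and those genes were still counted 35 and 29 times in the shallow sample, which gives counting errors of 16.9% and 18.6%. CD8 T cell markers were abundant throughout, with sums over 11 genes of 71810 to 72522 normalized counts in OT-1 alone, 82538 to 85629 in the macrophage samples and 92175 to 97419 in the samples with macrophages and tumor. The summed level of 16 macrophage markers ran from 3364 to 3648, from 1335 to 2316 and from 1657 to 1855 in the same order. Csf1r, a defining macrophage gene, averaged 4.02, 4.98 and 4.74 on the log2 scale.

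**Figure D1:**
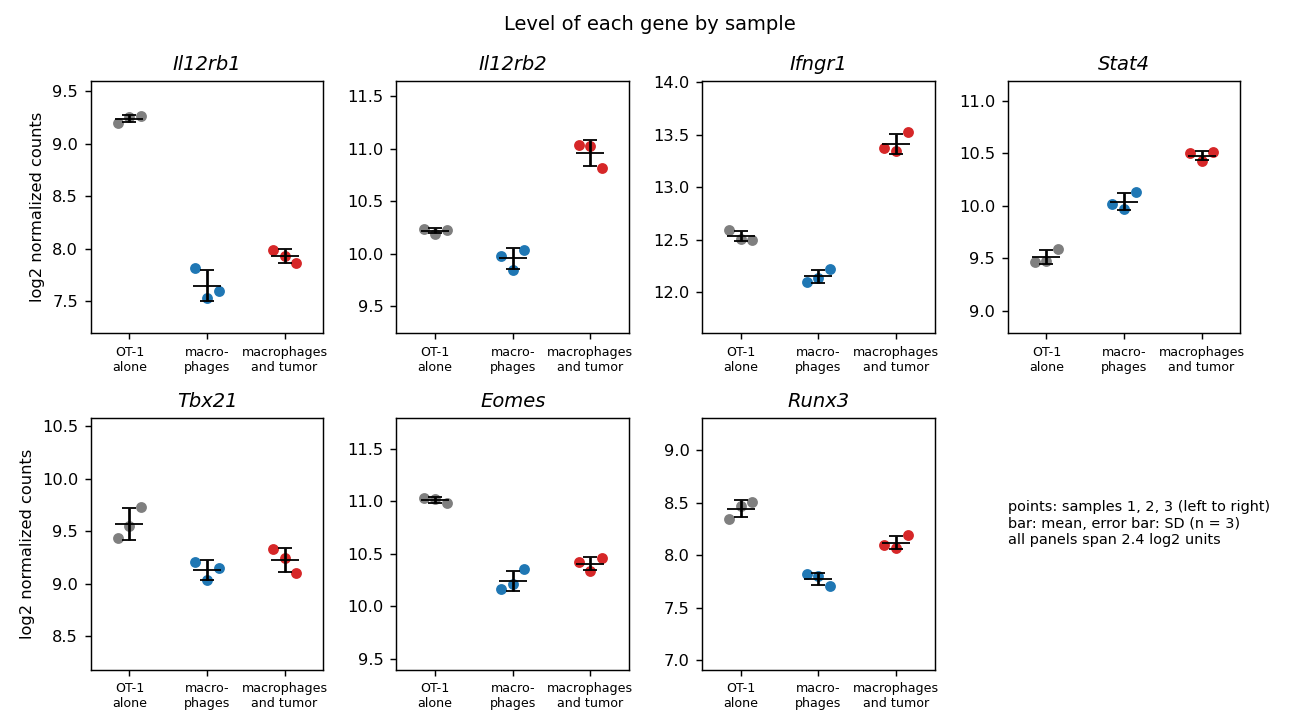
Log2 normalized counts (vertical axis) of the 7 genes in the 3 samples of each group (points, samples 1 to 3 from left to right), with the group mean (bar) and SD (error bar, n = 3). Il12rb1 lay highest in OT-1 alone, Il12rb2, Ifngr1 and Stat4 lay highest with macrophages and tumor, and Tbx21, Eomes and Runx3 lay highest in OT-1 alone.

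With macrophages and tumor, Stat4, Ifngr1 and Il12rb2 rose against OT-1 alone and Il12rb1 and Eomes fell. Thus 3 of 7 genes were called higher, against 14.5% of all 750 genes, and 2 of 7 lower, against 3.87%. With macrophages only, Stat4 rose, 1 of 7 against 11.9% of all genes, and Il12rb1, Eomes and Runx3 fell, 3 of 7 against 6.53%. Between the co-cultures, Ifngr1 and Il12rb2 were higher with tumor cells, 2 of 7 against 2.67%. None of the 7 was lower there by limma, at the adjusted threshold or at an unadjusted p under 0.05, and 0.533% of all genes were called lower. The groups did not overlap for 7 of 7 genes in either comparison with OT-1 alone, as for 57.1% and 53.1% of all genes, and for 5 of 7 between the co-cultures, as for 24.9%. Leaving out the shallow sample gave the same counts of called genes among the 7 in all 3 comparisons. RNA came from sorted cells in bulk, so fewer cells that express a gene and less RNA per cell cannot be told apart. Both comparisons with OT-1 alone share its 3 samples.

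The median difference of the 7 genes was -0.32, -0.44 and 0.34 in the 3 comparisons, beside 0.40, 0.66 and -0.12 over all genes. These all-gene medians were 0.40, 0.20 and 0.17 without the shallow sample. The split of all calls depends on scaling. It was 109 higher and 29 lower for macrophages and tumor against OT-1 alone as deposited, 58 and 94 after centring on the genes with a mean of 8 or more, 72 and 68 after quantile normalization, and 13 and 15 after centring on the median of all genes.

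**Figure D2:**
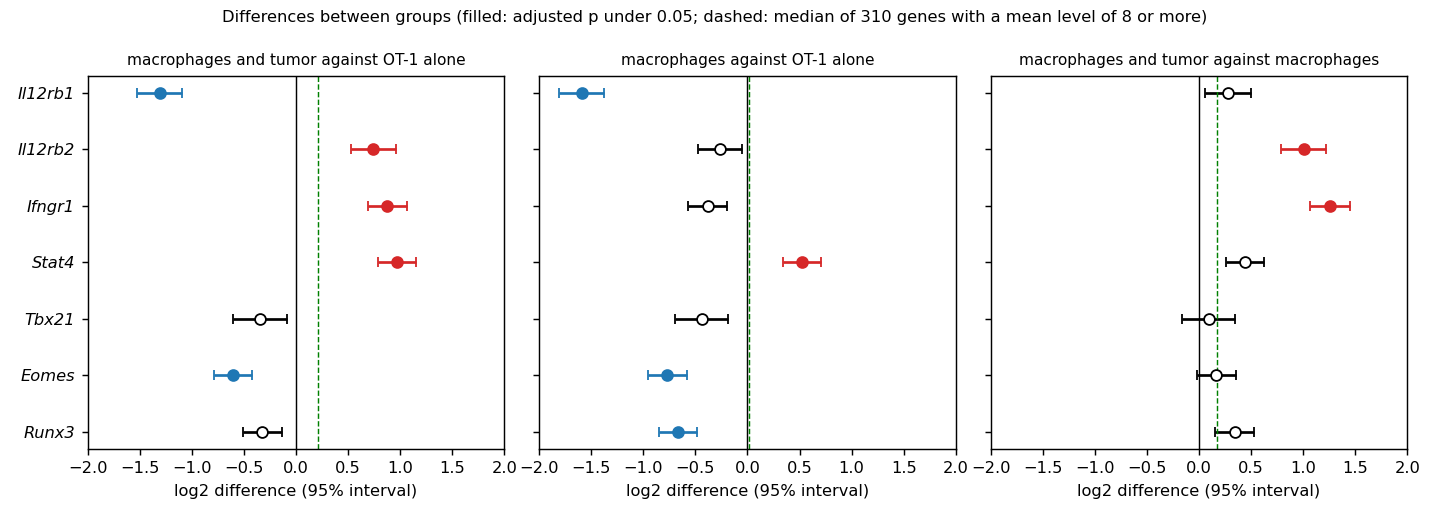
Log2 difference (horizontal axis) of each gene in each of the 3 comparisons, with 95% intervals from limma. Filled points passed an adjusted p of 0.05 (red higher, blue lower), open points did not, and the dashed line is the median over the 310 genes with a mean level of 8 or more. The IL-12 receptor chains lie on opposite sides of 0 in the left panel.

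Il12rb1, the chain that binds the subunit common to IL-12 and IL-23, was at 9.20, 9.25 and 9.26 in OT-1 alone, 7.81, 7.53 and 7.60 in the macrophage samples and 7.99, 7.93 and 7.86 in the samples with macrophages and tumor. All 6 co-culture samples lay at least 1.21 below the lowest control, and the co-cultures did not overlap each other by a margin of 0.05. The level fell with macrophages by 1.59 (SE 0.09, 3.01-fold lower, adjusted p = 1.51e-04), a call that held in all 21 other settings. With macrophages and tumor it fell by 1.31 (SE 0.09, 2.48-fold lower, adjusted p = 3.53e-04). Quantile normalization left that difference at -1.63 and ended its call (adjusted p = 0.198). Between the co-cultures the difference of 0.28 did not pass (95% interval 0.06 to 0.50, adjusted p = 0.950), and sample weights made it pass (adjusted p = 0.0119).

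Il12rb2, the signalling chain that recruits STAT4, did not share this pattern. It was at 10.24, 10.19 and 10.23 in OT-1 alone, 9.98, 9.85 and 10.04 in the macrophage samples and 11.04, 11.03 and 10.82 in the samples with macrophages and tumor. The order of the groups was macrophages, OT-1 alone, then macrophages and tumor, without overlap at either step. The level rose with macrophages and tumor by 0.74 against OT-1 alone (SE 0.09, 1.67-fold, adjusted p = 0.00518) and by 1.01 against macrophages (SE 0.09, 2.01-fold, adjusted p = 0.00509). Macrophages only gave a difference of -0.26, which did not pass (95% interval -0.48 to -0.05, adjusted p = 0.488).

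The 0.74 kept its direction in all 21 settings but not its call. Centring on the genes with a mean of 8 or more left 0.36 (adjusted p = 0.104) and centring on all genes 0.23 (adjusted p = 1). The higher level between co-cultures lost its call with a replicate block (adjusted p = 0.0665), centring on all genes, a fit to the 6 samples only (adjusted p = 0.138) and the methods' t-test (adjusted p = 0.124), and stayed between 0.74 and 1.19.

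Within a sample, subtracting one chain from the other removes any single scale factor of the sample. Il12rb2 minus Il12rb1 was 1.04, 0.94 and 0.97 in OT-1 alone, 2.17, 2.32 and 2.44 in the macrophage samples and 3.05, 3.10 and 2.96 in the samples with macrophages and tumor. On the deposited scale the groups stood in 3 steps that did not touch. The means were 0.98 ± 0.05, 2.31 ± 0.14 and 3.04 ± 0.07 (SD, n = 3 each). As deposited, the ratio of the chains' counts thus moved 2.51-fold from OT-1 alone to macrophages, a further 1.65-fold to macrophages and tumor, and 4.15-fold over both. The first of these steps came with the lower Il12rb1 and the second with the higher Il12rb2. Quantile normalization, which moves genes of 1 sample by unequal amounts, gave means of 0.93, 2.84 and 2.99 and left only 0.15 of the second step, a 1.11-fold change. There the shallow macrophage sample was at 3.98, above all samples with tumor cells, and the other macrophage samples at 2.15 and 2.39, below them, so those groups overlapped. The ratio itself depends on how well each probe captures its transcript, but its change between groups does not. These values are a description with no test, because the opposite moves of the chains were a reason to choose the genes.

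**Figure D3:**
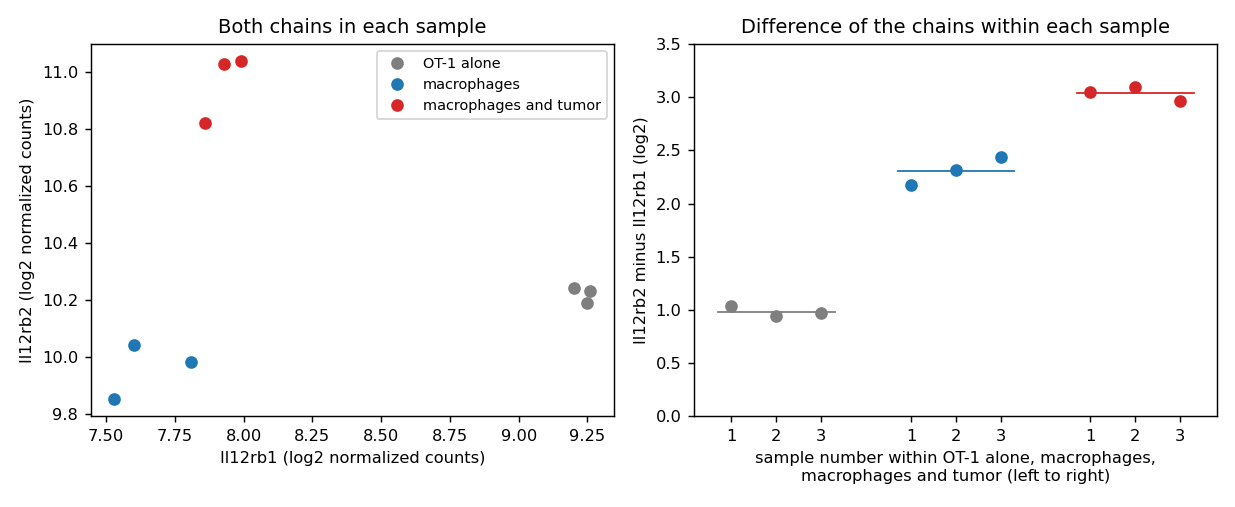
Left, Il12rb2 against Il12rb1 (both log2 normalized counts) in each of the 9 samples. Right, Il12rb2 minus Il12rb1 (log2) in each sample, with a line at each group mean of 0.98, 2.31 and 3.04. On this deposited scale the 3 groups occupy separate ranges in both panels.

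Ifngr1, the chain that binds IFN-γ and is made by nearly all cells including macrophages, was at 12.59, 12.51 and 12.50 in OT-1 alone, 12.10, 12.13 and 12.22 in the macrophage samples and 13.37, 13.34 and 13.52 in the samples with macrophages and tumor. The macrophage samples were all below the controls and the tumor samples all above them. Against OT-1 alone Ifngr1 rose by 0.88 (SE 0.08, 1.84-fold, adjusted p = 0.00112). Against macrophages it rose by 1.26 (SE 0.08, 2.39-fold, adjusted p = 0.00154), which was the third smallest p of the 750 genes in that comparison. The difference of -0.38 with macrophages only did not pass (95% interval -0.57 to -0.19, adjusted p = 0.0697), although it did so in 6 of the 21 other settings.

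On the linear scale Ifngr1 averaged 10901 normalized counts with macrophages and tumor and 4548 with macrophages. The 16 macrophage markers summed to 1657, 1718 and 1855 counts with macrophages and tumor and to 1335, 2316 and 1382 with macrophages. The 2316 came from the shallow sample, and the other macrophage samples lay below all samples with tumor cells. Whether macrophage RNA added to the Ifngr1 level was not tested. Centring on all genes ended the call against OT-1 alone (0.37, adjusted p = 1). That centring, a fit to 6 samples (adjusted p = 0.0570) and the methods' t-test (adjusted p = 0.0550) ended the call between the co-cultures.

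Ifngr1 and Il12rb2 were each other's closest gene on the panel. After each gene's mean over the 9 samples was subtracted, their root mean square difference was 0.15, and Abcb1a and Jun came next for both. Ifngr1 minus Il12rb2 within a sample was 2.35, 2.32 and 2.27 in OT-1 alone, 2.12, 2.28 and 2.18 in the macrophage samples and 2.33, 2.31 and 2.70 in the samples with macrophages and tumor. It ran higher in sample 3 of the last group, which had the highest Ifngr1 and the lowest Il12rb2 of its group. This difference was chosen after the values were seen, and no test was run on it. For Il12rb1 the closest gene was Flt3l (0.16), with Socs1 (0.22) also among the closest 3, so its nearest gene was farther from it than that of any other of the 7.

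The 250 bases before the RefSeq start of Il12rb2 and Ifngr1 (build GRCm38.p6) are shown because these genes moved together. RefSeq entries were matched for 6 of the 7 genes, 8 starts in all, and searched on both strands for the letters TCACACC (T-box factors), ACCACA (RUNX factors), TTCNNNGAA (GAS, bound by STAT dimers), TGANTCA (AP-1) and the NF-κB motif. Capitals mark a match.
Il12rb2, chr6:67376189-67376438, minus strand: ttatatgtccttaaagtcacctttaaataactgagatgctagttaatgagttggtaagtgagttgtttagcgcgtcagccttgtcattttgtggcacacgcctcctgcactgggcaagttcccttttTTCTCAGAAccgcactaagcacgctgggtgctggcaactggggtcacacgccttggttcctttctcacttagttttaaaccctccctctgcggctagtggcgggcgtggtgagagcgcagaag
Ifngr1, chr10:19591699-19591948, plus strand: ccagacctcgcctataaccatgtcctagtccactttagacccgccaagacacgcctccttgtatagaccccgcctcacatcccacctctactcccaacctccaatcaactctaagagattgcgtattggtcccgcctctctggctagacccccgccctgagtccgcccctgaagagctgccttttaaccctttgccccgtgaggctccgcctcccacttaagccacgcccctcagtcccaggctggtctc
Il12rb2 held 1 GAS match, starting 123 bases before the gene's start, and 7.02% of the 32851 promoters in the RefSeq set hold such letters. Ifngr1 held none of the 5 motifs in this window. A match describes letters only, and no binding was measured.

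Stat4, which passes on the signal of the β2 chain, was at 9.47, 9.48 and 9.59 in OT-1 alone, 10.02, 9.97 and 10.13 in the macrophage samples and 10.50, 10.43 and 10.51 in the samples with macrophages and tumor. It was the 1 gene of the 7 whose samples stood in this order, lowest to highest, with no overlap at either step. Stat4 rose by 0.97 with macrophages and tumor (SE 0.08, 1.95-fold, adjusted p = 5.90e-04) and by 0.53 with macrophages only (SE 0.08, 1.44-fold, adjusted p = 0.0136). The step of 0.44 between the co-cultures did not pass (95% interval 0.26 to 0.62, adjusted p = 0.0961) except in 5 of the 21 other settings.

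The first of these calls ended only with centring on all genes, which left 0.46 (adjusted p = 1). The second was less firm. Without macrophages replicate 3 it was 0.48 (adjusted p = 0.0676), without OT-1 alone replicate 1 it was 0.51 (adjusted p = 0.0900) and without OT-1 alone replicate 2 it was 0.51 (adjusted p = 0.0949). A fit to 6 samples and the methods' t-test also ended it, and centring on the median of all genes turned it to -0.17. The closest gene to Stat4 over the 9 samples was H2-T23 (root mean square difference 0.07), and Nfkb2 (0.09) was also among the closest 3.

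Stat4 and Il12rb2, the partners in the signal, did not keep step. Stat4 minus Il12rb2 ran from -0.77 to -0.64 in OT-1 alone, from 0.04 to 0.12 in the macrophage samples and from -0.60 to -0.31 where tumor cells were added. The macrophage samples thus had more Stat4 than OT-1 alone with no called change of Il12rb2. Between the co-cultures Il12rb2 was higher by 1.01, and Stat4 by 0.44, which did not pass. No test was run on Stat4 minus Il12rb2, as this pair was chosen after the values were seen.

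Of Eomes, Tbx21 and Runx3, Eomes stood farthest from OT-1 alone in both co-cultures. It was at 11.03, 11.02 and 10.98 in OT-1 alone, 10.16, 10.21 and 10.35 in the macrophage samples and 10.42, 10.34 and 10.46 in the samples with macrophages and tumor. Both co-cultures lay below all controls and overlapped each other. Eomes, a T-box factor of memory and cytotoxic CD8+ cells, fell by 0.77 with macrophages (SE 0.08, 1.71-fold lower, adjusted p = 0.00241) and by 0.60 with macrophages and tumor (SE 0.08, 1.52-fold lower, adjusted p = 0.00651). Only centring on all genes ended these calls (adjusted p = 0.101 and 0.607), with both differences still below 0. Between the co-cultures Eomes differed by 0.17 (95% interval -0.02 to 0.35, adjusted p = 1; exact permutation p = 0.2), and centring on the genes with a mean of 8 or more and quantile normalization turned that sign.

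Tbx21, which encodes T-bet, was at 9.43, 9.55 and 9.73 in OT-1 alone, 9.21, 9.03 and 9.15 in the macrophage samples and 9.33, 9.24 and 9.10 in the samples with macrophages and tumor. Every co-culture sample lay below the lowest control, by as little as 0.10, and the controls spread more than for any other of the 7 genes. Neither difference from OT-1 alone passed, -0.44 with macrophages (95% interval -0.70 to -0.18, adjusted p = 0.151) and -0.35 with macrophages and tumor (95% interval -0.60 to -0.09, adjusted p = 0.389). They passed in 5 and 2 of 21 settings. Between the co-cultures the difference was 0.09 (95% interval -0.16 to 0.35, adjusted p = 1; exact permutation p = 0.4), and its sign turned under the same scalings as for Eomes.

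Tbx21 minus Eomes within a sample was -1.60, -1.47 and -1.25 in OT-1 alone, -0.95, -1.18 and -1.20 in the macrophage samples and -1.09, -1.10 and -1.36 in the samples with macrophages and tumor. The controls and the macrophage samples did not overlap in this balance of the T-box factors, whereas the tumor samples reached into the range of the controls. No test was run on it, as it was chosen after the values were seen. The closest genes were Lgals3 (0.08), Cyfip2 (0.11) and Cebpb (0.11) for Tbx21, and Vim (0.08), Il4ra (0.10) and Slamf7 (0.11) for Eomes.

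Runx3, the RUNX factor of the CD8 lineage, was at 8.35, 8.47 and 8.51 in OT-1 alone, 7.82, 7.80 and 7.71 in the macrophage samples and 8.10, 8.07 and 8.19 in the samples with macrophages and tumor. The groups did not overlap, and the samples with tumor cells lay between the others. Runx3 fell by 0.67 with macrophages (SE 0.08, 1.59-fold lower, adjusted p = 0.00454). This call ended with centring on all genes (adjusted p = 0.133), quantile normalization (adjusted p = 0.184) and a fit to 6 samples (adjusted p = 0.0514). The other differences did not pass, -0.32 for macrophages and tumor against OT-1 alone (95% interval -0.51 to -0.14, adjusted p = 0.142) and 0.34 between the co-cultures (95% interval 0.16 to 0.53, adjusted p = 0.306). Cebpb (0.08) and Irf1 (0.09) were among the 3 genes closest to it.

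The first RefSeq start of Runx3 is shown because RUNX letters lie before the gene of a RUNX factor itself.
Runx3, chr4:135120395-135120644, plus strand: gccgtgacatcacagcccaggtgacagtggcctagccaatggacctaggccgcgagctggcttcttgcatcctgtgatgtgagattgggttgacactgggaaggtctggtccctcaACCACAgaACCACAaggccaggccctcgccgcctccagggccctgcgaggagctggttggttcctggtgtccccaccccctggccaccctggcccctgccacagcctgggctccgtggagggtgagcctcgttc
It held 2 RUNX matches, side by side as the capitals show, and 14.0% of all promoters hold at least 1. The other entries, the second Runx3 start, 2 starts of Stat4, and Eomes and Tbx21, held no match to any of the 5 motifs.

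A list of 17 genes of the IL-12 family, of which 16 were measured, includes Il12rb1, Il12rb2 and Stat4. In that list 7 rose with macrophages and tumor while 1, Il12rb1, fell (43.8% and 6.25%, beside 14.5% and 3.87% of all genes). With macrophages 5 rose and Il12rb1 fell (31.2% and 6.25%, beside 11.9% and 6.53%), and between the co-cultures 2 rose (12.5%, beside 2.67%). Of the 13 measured genes other than these, 5, 4 and 1 rose and 0 fell. The list's median differences were 0.67, 0.68 and 0.07, beside 0.40, 0.66 and -0.12 over all genes. Without the shallow sample the all-gene values were 0.40, 0.20 and 0.17. Il12a and Il12b, the subunits of IL-12 itself, averaged between 4.00 and 5.63 in every group and passed in no comparison. These are low levels, at which the shallow sample makes the macrophage average coarse. The kinase Tyk2 differed by 0.49 and 0.46 from OT-1 alone without passing (adjusted p = 0.282 and 0.343), and Jak2 stood at 10.02, 9.94 and 10.04 in OT-1 alone, macrophages, and macrophages and tumor.

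Among the genes of the list that rose were the chains of the IL-18 receptor, whose ligand acts with IL-12 on IFN-γ production. Il18r1 rose by 0.58 with macrophages and tumor and 0.85 with macrophages, and Il18rap by 0.59 and 0.82. With tumor cells both calls ended after centring on the genes with a mean of 8 or more (0.20 and 0.21) and after quantile normalization (0.25 and 0.26). Stat3, which IL-23 and IL-6 family cytokines use, rose by 1.46 with macrophages and tumor (adjusted p = 4.45e-04) and differed by 0.45 with macrophages (adjusted p = 0.134). With Il12rb2 it was the other gene of the list higher between the co-cultures, by 1.01 (adjusted p = 0.0136). Ebi3, a subunit of IL-27, rose by 1.11 and 0.90, and Il6st, the shared chain gp130, by 1.04 and 1.03. The Il6st call with macrophages and tumor ended after either centring and after quantile normalization. With macrophages it ended after centring on all genes (0.33) and after quantile normalization (0.18). Of these scalings, only centring on all genes ended the Ebi3 calls.

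On the IFN-γ side, 19 of 20 listed genes were measured, and Ifngr2, the other receptor chain, was not analysed here. Here 3 rose with macrophages and tumor while 1 fell (15.8% and 5.26%, near the 14.5% and 3.87% of all genes). With macrophages 2 rose and 3 fell (10.5% and 15.8%, beside 11.9% and 6.53%), and between the co-cultures only Ifngr1 rose (5.26%, beside 2.67%). Apart from Ifngr1, the numbers that rose in the 3 comparisons were 2, 2 and 0 of 18, and 1, 3 and 0 fell. The list's medians were 0.26, -0.06 and 0.14. Ifng itself was at a mean of 7.81 in OT-1 alone, 9.70 in the macrophage samples and 10.08 after addition of tumor cells, a rise of 1.89 and 2.27 (adjusted p = 0.00275 and 9.68e-04) with no called difference between the co-cultures (0.38, adjusted p = 1). Genes that IFN-γ is known to induce did not move together. Irf8 rose by 1.15 and 1.59 with macrophages and with macrophages and tumor, and Socs1, a brake on Jak signalling, fell by 1.48 and 1.49. Irf1 and Gbp5 fell by 0.54 and 0.44 with macrophages and did not pass with tumor cells added.

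Of 21 lineage transcription factors 16 were measured. Ikzf2, Runx1, Tcf7 and Ikzf1 rose and Eomes fell with macrophages and tumor (25.0% and 6.25%, beside 14.5% and 3.87% of all genes). With macrophages Ikzf2, Runx1 and Ikzf1 rose and Eomes and Runx3 fell (18.8% and 12.5%, beside 11.9% and 6.53%), and without the shallow sample 4 fell in place of 2. With all 9 samples, 4, 3 and 1 of the 13 measured factors other than Tbx21, Eomes and Runx3 rose in the 3 comparisons, and 0 fell. The list's medians were 0.15, 0.02 and 0.17. Runx1, which shares its DNA motif with Runx3, rose by 1.15 with macrophages and tumor and 1.03 with macrophages, where Runx3 was lower. Tcf7, the factor of memory and stem-like T cells, rose by 0.96 with macrophages and tumor (adjusted p = 0.00451) and differed by 0.27 with macrophages (adjusted p = 0.770), and its call ended after centring on the genes with a mean of 8 or more (0.58, adjusted p = 0.0595). Ikzf2 (Helios) rose by 2.95 and 1.79 and was higher by 1.16 between the co-cultures, where it was the only listed factor to pass, or 1 of 2 without the shallow sample. Gata3, which drives the type 2 programme, differed by 0.09 and -0.08.

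The list of 22 genes reported as targets of T-bet, Eomes or Runx3 split in both directions. Of these, 8 rose with macrophages and tumor while 3 fell (36.4% and 13.6%, beside 14.5% and 3.87% of all genes). With macrophages 6 rose and 4 fell (27.3% and 18.2%, beside 11.9% and 6.53%), and between the co-cultures 3 rose (13.6%, beside 2.67%). Apart from Il12rb2, the numbers that rose in the 3 comparisons were 7, 6 and 2 of 21, and 3, 4 and 0 fell. The medians were 0.26, 0.01 and 0.23. Xcl1, a chemokine, rose by 1.76 and 2.42 with macrophages and tumor and with macrophages, Cx3cr1 by 2.10 and 1.38, and Prf1, the pore-forming protein perforin, by 1.30 and 0.89. The Prf1 call with macrophages ended under centring on all genes (0.20), the other centring (0.78) and quantile normalization (0.80). With macrophages and tumor only centring on all genes, of these scalings, ended it. Gzma, a granzyme, fell by 1.58 and 2.38, and Cxcr6 by 0.49 and 0.99. Gzmb fell by 1.32 and Ccl5 by 0.81 with macrophages, and Cxcr3, a classical T-bet target, fell by 1.10 with macrophages and tumor. Between the co-cultures the 3 that rose were Il12rb2, Gzma (0.80, adjusted p = 0.0235) and Cxcr6 (0.50, adjusted p = 0.0417), and the calls of Gzma and Cxcr6 ended under each of the 3 scalings. Cd4, which Runx3 silences, averaged between 3.99 and 5.30 in the 3 groups and passed in none, while Cd8a rose by 0.90 and 0.72. At such low Cd4 levels the macrophage average is coarse, as for Il12a and Il12b. Over the 4 lists there were 55 calls in the 3 comparisons. Of these, 45 held after centring on the genes with a mean of 8 or more, 43 after quantile normalization and 12 after centring on all genes, and the last turned the sign of Ikzf1 and Cd8b1 with macrophages and tumor and of Stat4 with macrophages.

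**Figure D4:**
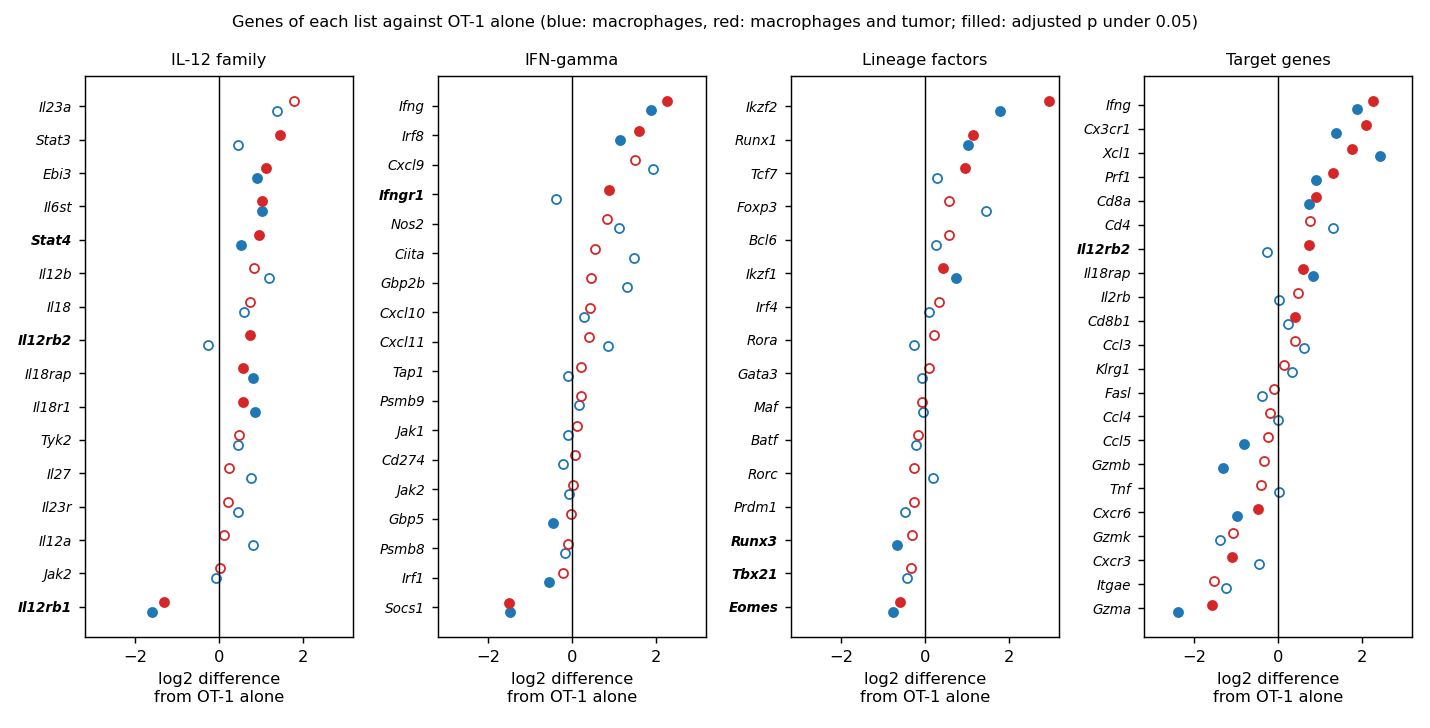
Log2 difference from OT-1 alone (horizontal axis) of measured genes of the 4 lists, with macrophages (blue) and with macrophages and tumor (red). Filled points passed an adjusted p of 0.05 and bold symbols are the 7 genes described here. Il12rb1 is lowest in its list in both co-cultures, and Ifng highest in the lists that hold it with macrophages and tumor.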

How the data were processed

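RNA of sorted CD8+ T cells from 9 samples was counted on an nCounter with a panel of immune genes. The authors normalized the counts in nSolver 4.0.70 and deposited log2 values of 750 genes, which were used as given; their own tests, made with nSolver's Advanced Analysis module, were not used. Groups came from the sample titles. A shared error in the authors' reference genes would shift all genes of a sample together, so scaling was varied.

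Differences were fitted in R 4.3.3 by limma 3.58.1, using lmFit on all 9 samples with each group as 1 coefficient and eBayes for two-sided p-values, with Benjamini-Yekutieli adjustment over all 750 genes, a threshold of 0.05 and no filter. A single gene's exact permutation test of 3 against 3 cannot go below p = 0.1. The fit was tested on simulated independent normal values, with the same spread of a gene in all samples. These held neither the shallow sample nor a shift of the whole panel, so that test does not speak to either. Raw totals were recovered from the steps between low values, which all were whole multiples of 1 count within 0.006 on the log2 scale. Replicates differed by more than counting noise (chi-square per degree of freedom 1.95 to 26.2 over 9 pairs).

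The 7 genes, the lists and the markers were chosen with earlier results of these data known. Besides the 7, the text names list genes that passed, up to 6 per list by size, and Ifngr2, Jak2, Tyk2, Ifng, Il12a, Il12b, Cd4, Gata3 and Tcf7 in any case. Likeness was ranked over the 3 closest genes by root mean square difference. Some genes that these rules reach are not reported here. Marker lists of B cells, dendritic cells, CD4 T cells, NK cells and tumor or mesenchymal cells were summed too. The first 4 had sums of 74 to 739 counts, and the last, led by Spp1, 2804 to 3089 in OT-1 alone, 13300 to 14890 with macrophages and 8670 to 9218 with macrophages and tumor. All 7 symbols are current in RefSeq, from which promoters were taken. The alternatives were leaving out each sample, the replicate number as a block, 3 scalings, 2 floors, a filter, an intensity trend, sample weights, Benjamini-Hochberg adjustment, the 6 samples compared and the methods' t-test.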

Additional observations from a re-analysis of the deposited data

How the results depend on the processing

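Across 441 values of the 7 genes under alternatives, 388 kept direction and side of the threshold, 22 lost a call, 26 gained one and 5 reversed. The reversed were Stat4 with macrophages against OT-1 alone, -0.17 after centring on all genes, and, between the co-cultures, Tbx21 at -0.17 and Eomes at -0.10 after centring on genes with a mean of 8 or more and at -0.026 and -0.076 after quantile normalization. Quantile normalization put Il12rb2 minus Il12rb1 at 0.93 in the controls, 2.84 in the macrophage samples and 2.99 after addition of tumor cells, so its second step shrank from 0.73 to 0.15. Leaving out 1 sample kept it at 0.96 to 1.01, 2.25 to 2.38 and 3.01 to 3.08. Depth limits macrophages replicate 2 most. Without it, the all-gene median difference from OT-1 alone went from 0.66 to 0.20 with macrophages only and stayed at 0.40 with tumor cells added. Between the co-cultures it went from -0.12 to 0.17. SEs of the 7 genes ran from 0.08 to 0.11 as deposited and from 0.38 to 0.40 after centring on all genes. After quantile normalization Il12rb2 minus Il12rb1 was 3.98 in that sample and 2.15 and 2.39 in the other macrophage samples. Whether its depth caused these shifts was not tested.

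Deviations of same-numbered samples correlated at -0.37 to 0.46. In both comparisons that include tumor cells the correlations were all positive, from 0.07 to 0.32. Between macrophages only and OT-1 alone they were 0.46, -0.04 and -0.37 for replicates 1 to 3. Because the sign differed between comparisons, these values do not settle whether replicate numbers paired the samples. With a replicate block, macrophages against OT-1 alone called 30 genes lower in place of 49, and the co-cultures differed in 9 higher and 1 lower in place of 20 and 4, with 1 of the 7 genes in place of 2.

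In the following, counts are genes higher and lower, 109 and 29 as deposited for macrophages and tumor against OT-1 alone. They then follow for macrophages against OT-1 alone (89 and 49) and between co-cultures (20 and 4), and are given where they moved by over 1.5 times. Centring on all genes gave 13 and 15, 7 and 30, and 0 and 0 (36 and 26 at an unadjusted p under 0.05 by limma). Centring on genes with a mean of 8 or more gave 58 and 94, and 13 and 10 between the co-cultures. Quantile normalization gave 72 and 68, and 9 lower between the co-cultures. Sample weights, whose fit stopped before full convergence, gave 216 and 64, 187 and 114, and 114 and 17. Benjamini-Hochberg adjustment gave 48 lower, 142 and 84, and 53 and 9. The 6 samples alone gave 48 and 25, and 0 and 0 between the co-cultures (89 and 17 unadjusted), and the methods' t-test 44 higher, and 0 and 0 (113 and 23 unadjusted). Between the co-cultures a floor of 100 counts gave 37 higher, a mean of 5 or more 38 and 7, and an intensity trend 57 and 9.

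Leaving out 1 sample gave 75 to 175 higher and 18 to 48 lower, 56 to 100 and 26 to 70, and 10 to 29 and 1 to 5; the most in the first comparison, 175 and 48, came without macrophages replicate 2.

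Of the 7 genes, macrophages and tumor against OT-1 alone called 0 higher and 1 lower after centring on all genes (0 higher unadjusted) and 4 lower after centring on genes with a mean of 8 or more. Macrophages against OT-1 alone called 0 higher after centring on all genes, with the 6 samples, with the t-test (1 unadjusted in these last cases) and, leaving out 1 sample, 0 to 1. It called 1 lower after centring on all genes and 5 lower after the other centring, with a trend, with weights and with Benjamini-Hochberg adjustment. The co-cultures called 0 higher after centring on all genes, with the 6 samples and with the t-test (2, 4 and 5 unadjusted), 5 with weights and 4 with Benjamini-Hochberg adjustment.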
